A study of Mus musculus with 4 samples.

Results

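Of the genes measured in mouse neural stem cells, 10 that carry signals from Toll-like and interleukin-1 receptors through the adaptor MyD88 are described here: Myd88, Irak4, Irak1, Irak2, Traf6, Tollip, Map3k7, Tab1, Nfkbia and Rela. They were taken by gene symbol from a table of 26815 entries, in which each symbol had 1 entry and all 10 were among the 15315 entries tested by the authors. The set was selected on the log2 fold changes and q-values of this same comparison, in which Irak1 had been noticed, so every value of these genes is given as a description and none as a test of the pathway. The RNA came from cultured neural stem cells, bought from a supplier and derived from the cortex of CD-1 mice at E14.5, which were kept in monolayer culture with EGF plus bFGF, transduced with lentivirus and expanded under puromycin at 0.5 µg/mL. One group carried a scrambled shRNA (SHC002) and the other an shRNA targeting Foxp1 (pLKO.1_sh_ex15), with 2 libraries each, from cultures of different passages, so that all cells had received a lentiviral vector and drug selection. A single hairpin targeted Foxp1, and effects of Foxp1 loss, of other targets of that hairpin and of other differences between the cultures cannot be told apart. The deposited values set a condition coded q2 against one coded q1, with libraries of a condition combined, and neither code is tied to an shRNA by a label or header. Directions are therefore q2 relative to q1, and no value per library or per condition was used, so the spread between replicates cannot be shown and depth is unknown.

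MyD88 is the adaptor that most Toll-like receptors and the interleukin-1 receptor family recruit through their TIR domains. It gathers the kinases IRAK4, IRAK1 and IRAK2 into an oligomer called the Myddosome, which acts on the ubiquitin ligase TRAF6. Ubiquitin chains then activate the kinase TAK1 (Map3k7) with its partner TAB1, leading to loss of the inhibitor IκBα (Nfkbia), release of NF-κB subunits such as p65 (Rela) into the nucleus, and activity of p38 and JNK. In the brain these receptors are best known from microglia, but astrocytes and neural progenitors also carry some of them.

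Irak1, the kinase that links IRAK4 to TRAF6, stood 6.35-fold higher in q2 than in q1 by the authors' deposited table (2.67 on the log2 scale, q = 0.00162 from Cuffdiff). The remaining 9 genes were not called, with log2 fold changes between -0.42 for Traf6 and 0.41 for Myd88 in the authors' deposited table. The error implied by dividing Irak1's log2 fold change by its test statistic was 0.26, so that the difference was 10.2 such errors from 0 in the authors' deposited table. Ranked by the size of that statistic, Irak1 stood at place 2 among the 1168 called entries of the authors' deposited table. By log2 fold change it stood at place 28 among the 640 called entries with a finite value above 0 in the authors' deposited table. Called means a q under 0.05 here, a mark reached by 7.63% of all tested entries of the authors' deposited table, 4.24% as higher in q2 and 3.39% as lower. Since 1 of these 10 genes was called and that 1 prompted the set, its share is not read against the 7.63% in the authors' deposited table. Irak1 is among 472 entries at a p of 5e-05, because the authors' p-values stop there in the authors' deposited table. Foxp1, the gene targeted by the hairpin, had a log2 fold change of -2.03 in the authors' deposited table (q = 0.00162 from Cuffdiff).

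**Figure D1:**
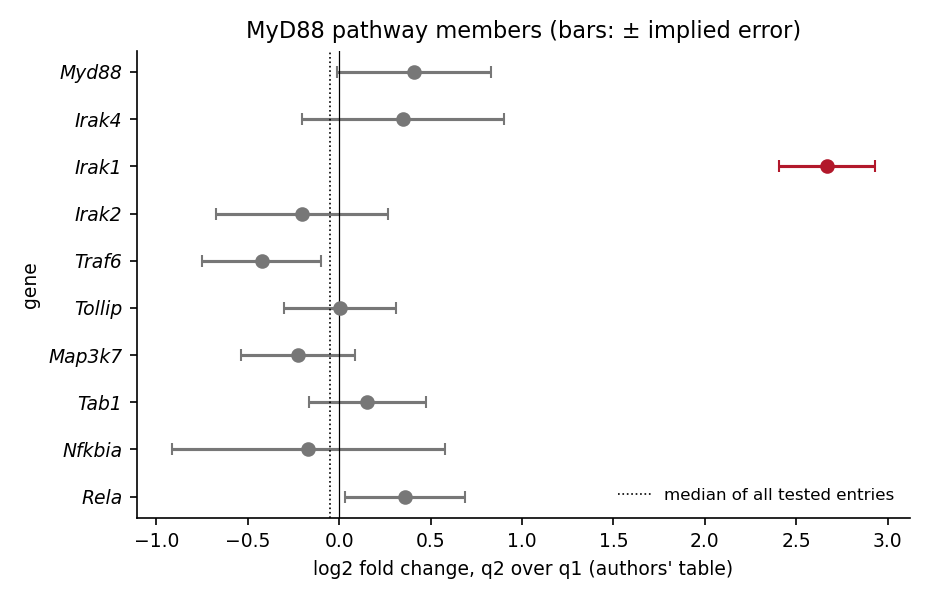
Log2 ratio of q2 to q1, taken from the authors' deposited table, on the x axis, for each of the 10 genes (y axis, in the order of the pathway from adaptor to transcription factor). Points are the authors' values, red if called and grey if not, bars show the implied error on either side, and the dotted line marks the median of all tested entries, -0.05; the bar of Irak1 runs from 2.41 to 2.93, and the bars of the other 9 genes end at or below 0.90.

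The Irak1 entry covered chrX:74013914-74023936 on GRCm38 (mm10) and overlapped no other entry of the table. Its lower end equals that of the GENCODE M21 gene, which lies on the minus strand with 22 annotated transcripts. Its upper end reaches 18 bases beyond the gene, to the last base of the microRNA gene Mir718 (X, 74023849 to 74023936), which overlies the start of Irak1. A second microRNA gene, Mir5132 (X, 74023528 to 74023598), also lies inside the locus. Neither microRNA gene has an entry of its own, so reads from them and from Irak1 cannot be told apart in this entry. Values are given for the side of lower coordinates only, where 5 other entries lay within 100 kb, all tested, and 1 of them was called in the authors' deposited table. The nearest of these, an entry without a symbol at 5340 bases, had a log2 fold change of 0.62 ± 0.89 (implied error) in the authors' deposited table (q = 0.669 from Cuffdiff). Hcfc1, a transcriptional co-regulator gene at 47.6 kb, was at 0.27 ± 0.31 in the authors' deposited table, and an entry without a symbol beside it was at -0.02 ± 0.40. Renbp, an enzyme gene of amino sugar metabolism at 83.1 kb, was called at 1.45 ± 0.51 in the authors' deposited table (q = 0.00719 from Cuffdiff). Naa10, an N-terminal acetyltransferase gene at 92.0 kb, was at 0.59 ± 0.33 in the authors' deposited table (q = 0.115 from Cuffdiff). The 3 entries between Irak1 and Renbp were thus not called.

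**Figure D2:**
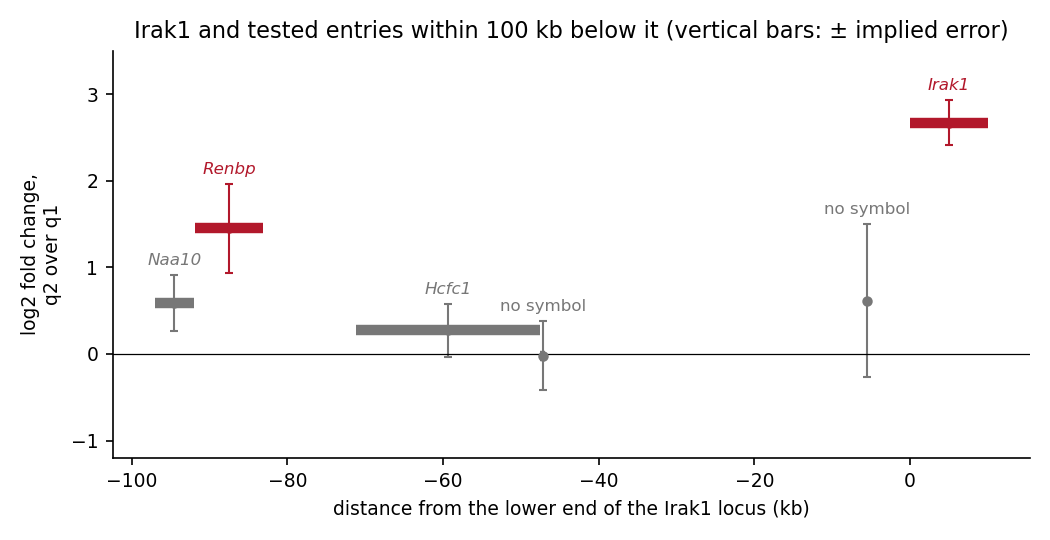
Log2 ratio of q2 to q1, taken from the authors' deposited table, (y axis) against distance from the lower end of the Irak1 locus in kb (x axis) for Irak1 and the 5 entries within 100 kb on the side of lower coordinates. Horizontal bars span each locus, points mark its middle, vertical bars show the implied error, and red marks called entries; Irak1 at 2.67 and Renbp at 1.45 are called, and the 4 other entries are not.

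The bases before the transcription start are shown for Irak1, the one gene of the set that was called, and for Nfkbia, whose promoter is the textbook target of NF-κB and whose mRNA serves as a readout of the pathway. Promoters were matched by symbol in RefSeq on GRCm38.p6 for 9 of the 10 genes (all but Tab1). The 250 bases before the start lie at chrX:74023922-74024171 for Irak1 and at chr12:55492648-55492897 for Nfkbia, both on the minus strand, and are printed 5′ to 3′ with the match to the κB consensus of NF-κB in capitals.
Irak1 promoter: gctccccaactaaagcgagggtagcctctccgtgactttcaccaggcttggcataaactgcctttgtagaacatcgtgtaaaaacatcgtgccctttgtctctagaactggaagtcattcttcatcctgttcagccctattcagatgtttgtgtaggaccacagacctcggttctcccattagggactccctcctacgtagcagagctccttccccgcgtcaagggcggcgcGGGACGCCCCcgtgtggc
Nfkbia promoter: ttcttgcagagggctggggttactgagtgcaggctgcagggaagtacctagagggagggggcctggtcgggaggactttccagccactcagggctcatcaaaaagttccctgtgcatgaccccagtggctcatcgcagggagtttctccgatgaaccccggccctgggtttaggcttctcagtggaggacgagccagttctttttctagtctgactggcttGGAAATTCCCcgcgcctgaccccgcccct
Matches were sought on both strands. The κB consensus was found in 3 of the 9 promoters, 18 bases before the start in Irak1, 29 before it in Nfkbia and 92 before it in Map3k7 (counted from the first base of the match), and in 7.25% of all 32851 promoter windows of this length. GC content ran from 51.2% in Myd88 to 70.4% in Rela among the 9, beside a median of 52.4% over all windows. It was not matched, so no enrichment is read from these shares. RefSeq gives Irak1 a second start slightly downstream, from which the same match lies 21 bases away. The forkhead core TGTTTAC, the letters that Foxp proteins are known to favour, was in none of the 9 promoters and in 3.17% of all windows, and no match in these windows says nothing about binding of Foxp1.

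Irak1 and Traf6 are also the classical targets of the microRNAs miR-146a and miR-146b, which NF-κB induces and which lower the output of the pathway. Their mature forms share a seed (bases 2 to 8, in capitals) and are shown because its complement was searched for in the 10 transcripts.
mmu-miR-146a-5p: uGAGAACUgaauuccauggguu
mmu-miR-146b-5p: uGAGAACUgaauuccauaggcu
The pairing letters AGTTCTC occurred in the 3′ UTRs of 4 of the 10 genes, taking the GENCODE M21 transcript with the longest coding sequence, and in 10.02% of 20633 genes with a 3′ UTR. These UTRs ran from 469 bases in Irak1 to 4170 in Traf6 among the 10, beside a median of 797 bases over all 20633. Length was not matched, so no enrichment is read from these shares. Traf6 held 4 matches in 4170 bases, Irak1 2 in 469 bases, Irak2 2 in 1246 bases and Tollip 1 in 2784 bases. The Irak1 matches lie at chrX:74015394-74015400 and chrX:74015378-74015384, and those of Traf6 nearest to its stop codon at chr2:101697959-101697965 and chr2:101698023-101698029, printed here as DNA on the strand of the mRNA with the match in capitals.
Irak1 site 1: agactcagaggtcaaAGTTCTCa
Irak1 site 2: gttctcatgcttggaAGTTCTCa
Traf6 site 1: accgctctggtgttgAGTTCTCa
Traf6 site 2: tccctggaaggcttaAGTTCTCa
Of the 4 genes with matches only Irak1 was called, at 2.67 on the log2 scale in the authors' deposited table. Traf6 at -0.42, Irak2 at -0.20 and Tollip at 0.01 were not called in the authors' deposited table, so no direction is read from them. The part of these microRNAs in the values was not tested. The microRNA genes Mir146 and Mir146b have entries that the authors did not test.

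At the receptor end, the adaptor gene Myd88 had a log2 fold change of 0.41 ± 0.42 in the authors' deposited table (q = 0.483 from Cuffdiff). Irak4, the first kinase of the Myddosome, was at 0.35 ± 0.55 in the authors' deposited table (q = 0.694 from Cuffdiff). Irak2, which acts beside and after Irak1, was at -0.20 ± 0.47 in the authors' deposited table (q = 0.816 from Cuffdiff). The Irak family thus held 1 called gene, Irak1, beside 2 whose log2 fold changes were smaller than their implied errors. The inhibitory IRAK-M gene, Irak3, was not tested by the authors. Tollip, an adaptor that holds IRAK1 inactive, was at 0.01 ± 0.31 in the authors' deposited table, the value closest to 0 in the set (q = 0.991 from Cuffdiff), and its sign turned with the trend with GC content or transcript length removed.

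Downstream, the ubiquitin ligase gene Traf6 had the lowest value of the set, -0.42 ± 0.32 in the authors' deposited table (Cuffdiff p = 0.0615, q = 0.292). The TAK1 gene Map3k7 was at -0.22 ± 0.31 and its partner Tab1 at 0.16 ± 0.32 in the authors' deposited table (q = 0.640 and 0.787 from Cuffdiff), Tab1 going to -0.10 with the trend with GC content removed. Rela, the p65 subunit of NF-κB, was at 0.36 ± 0.33 in the authors' deposited table (q = 0.420 from Cuffdiff). Nfkbia, which encodes IκBα and is itself induced by NF-κB, was at -0.17 ± 0.75 in the authors' deposited table, and its implied error was the largest of the 10 genes (q = 0.918 from Cuffdiff). Its entry stands apart by its locus of 211834 bases on chromosome 12 against a gene of 3238 bases, a locus it shares with Psma6, Ppp2r3c, 1110008L16Rik and Mir1198. Mir1198 was not tested, and the others were not called, at 0.06, -0.51 and -0.11 in this order in the authors' deposited table. The other 9 genes overlapped no other entry. Of the 9 genes not called, 5 had a positive and 4 a negative value, 7 were smaller than their implied error, and none had an unadjusted Cuffdiff p under 0.05 in the authors' deposited table. Traf6 and Rela were the 2 whose value exceeded its error. The median of these 9 was 0.01 and that of all 10 was 0.08, beside -0.05 for all tested entries of the authors' deposited table. A value not called does not show that the gene was equal in both conditions: for Irak4, 1 implied error either side runs from -0.20 to 0.90 in the authors' deposited table.

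The other genes of the pathway were followed in 9 lists of 118 genes ordered from receptor to target, of which 66 were tested, 3 called higher and 4 lower in the authors' deposited table. That is 10.6% of the tested genes, beside 7.63% of all tested entries in the authors' deposited table. Among entries with a single symbol, as all these genes are, the shares were 12.1% and 9.56% after q was adjusted anew. The median log2 fold change of the list genes was -0.06, beside -0.05 for all tested entries in the authors' deposited table. Among 26 receptors and co-receptors 8 were tested, 1 was called lower and none higher, with a median of -0.41 in the authors' deposited table. The called gene was Tlr1, which pairs with TLR2 to sense bacterial lipopeptides, at -1.02 ± 0.43 in the authors' deposited table (q = 0.0244 from Cuffdiff). Tlr3, a receptor of double-stranded RNA that uses the adaptor TRIF and not MyD88, was at -0.69 ± 0.38 in the authors' deposited table (q = 0.106 from Cuffdiff). Il1rap, the co-receptor that interleukin-1 and interleukin-33 receptors share, was at 0.48 ± 0.37 in the authors' deposited table (q = 0.295 from Cuffdiff). With the trend with GC content removed, Tlr1 went to -0.80 and lost its call (q = 0.0984), and Il1rap went to 0.78 and gained one (q = 0.0423). Tlr2, Tlr4, Tlr7 and Tlr9, the receptors most used to set off the pathway, were among the 18 not tested. Of 6 ligands 3 were tested without a Cuffdiff call, 1 having an unadjusted p under 0.05, and they had a median of -0.27 in the authors' deposited table. That 1 was the alarmin Il33 at -1.03 ± 0.61 in the authors' deposited table (q = 0.141 from Cuffdiff), while Il18 was at -0.27 ± 0.35.

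Of the other adaptors and IRAK family genes 3 of 6 were tested without a Cuffdiff call, 0 of them had an unadjusted p under 0.05, and the median was -0.26 in the authors' deposited table. Sarm1, an adaptor-like NAD hydrolase, was at -0.38 ± 0.34 and Tirap, which brings MyD88 to the receptors, at -0.26 ± 0.38 in the authors' deposited table. Among ubiquitin enzymes and the TAK1 and IKK complexes 15 of 17 were tested, 1 was called lower and none higher, with a median of -0.14 in the authors' deposited table. The called gene was Peli2, one of the Pellino ubiquitin ligases that bind and modify IRAK1, at -0.90 ± 0.31 in the authors' deposited table (q = 0.00162 from Cuffdiff). The Peli2 locus overlaps another entry. Peli1, a relative of Peli2, was at -0.34 ± 0.31 and Chuk, the IKKα kinase, at -0.57 ± 0.35 in the authors' deposited table (q = 0.419 and 0.155 from Cuffdiff). NF-κB and IκB genes, 8 tested of 10, had no Cuffdiff call and 0 genes with an unadjusted p under 0.05, and their median was 0.03 in the authors' deposited table. Nfkb2, the p100 subunit and a known NF-κB target, was at 0.61 ± 0.52 and Nfkb1 at 0.19 ± 0.34 in the authors' deposited table.

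In the p38 and JNK branch 10 of 12 genes were tested and 1 was called lower, with a median of -0.17 in the authors' deposited table. It was Mapk10, the JNK kinase found mainly in the nervous system, at -1.13 ± 0.34 in the authors' deposited table (q = 0.00162 from Cuffdiff). The JNK gene Mapk9 was at -0.43 ± 0.32 and the p38 gene Mapk11 at 0.64 ± 0.37 in the authors' deposited table (q = 0.285 and 0.126 from Cuffdiff). Of the brakes on the pathway 8 of 10 were tested without a Cuffdiff call, 1 of them had an unadjusted p under 0.05, and the median was 0.24 in the authors' deposited table. Socs3, a feedback inhibitor of cytokine signalling, was at 0.74 ± 0.46 and Zfp36, which destabilises cytokine mRNAs, at 0.60 ± 0.46 in the authors' deposited table (q = 0.163 and 0.304 from Cuffdiff). Irf1 and Irf3, transcription factors of the interferon response and the only 2 of 5 such genes tested, had values of 0.55 ± 0.42 and 0.19 ± 0.35 by the authors' deposited table, with 0 Cuffdiff calls and 0 having an unadjusted p under 0.05.

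Among the 9 pathway lists, NF-κB target genes had most calls, 3 higher and 1 lower of 9 tested among 26, with a median of 0.22 in the authors' deposited table. Over all tested entries 4.24% were called higher and 3.39% lower. The X- and Y-linked genes described below, outside these lists, had 1 called higher and 3 lower of 8 tested. Ier3, an early response gene, was 9.44-fold higher in q2 at 3.24 ± 0.98 in the authors' deposited table (q = 0.0332 from Cuffdiff). The chemokine gene Ccl2 was 3.06-fold higher at 1.61 ± 0.53 in the authors' deposited table (q = 0.00719 from Cuffdiff). Bcl2l1, which encodes the survival protein Bcl-xL, was at 0.64 ± 0.32 in the authors' deposited table (q = 0.0449 from Cuffdiff), with a locus that overlaps another entry. Against these, the adhesion molecule gene Vcam1 was 4.76-fold lower at -2.25 ± 0.34 in the authors' deposited table (q = 0.00162 from Cuffdiff). The called targets thus went both ways. The 17 not tested included the classical inflammatory targets Il6, Tnf, Cxcl1, Cxcl2, Nos2 and Ptgs2. Bcl2l1 lost its call with the trend with GC content removed (q = 0.183) and with that of transcript length removed (q = 0.0574). With p taken from a normal distribution of the statistic, Tlr1, Peli2, Ccl2, Bcl2l1 and Renbp lost theirs, at q = 0.303, 0.103, 0.0675, 0.466 and 0.124.

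**Figure D3:**
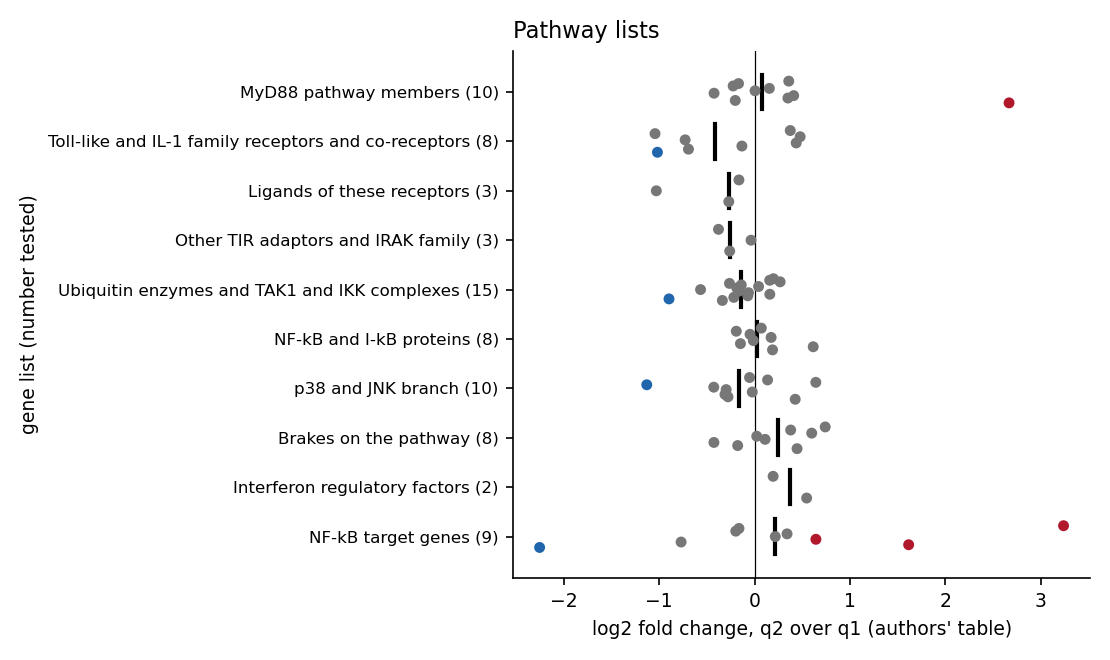
Log2 ratio of q2 to q1, taken from the authors' deposited table, along the x axis, for the MyD88 set and 9 further pathway lists along the y axis, each with its number of tested genes. Each point is 1 gene, coloured red for a call higher in q2, blue for a call lower and grey for no call, with the median as a black bar, from -0.41 for receptors to 0.37 for interferon regulatory factors; Irak1 at 2.67 and Ier3 at 3.24 lie highest.

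Irak1 lies on chromosome X, and 4 of 8 X- and Y-linked genes known to differ with the sex of cells were called in the same comparison. Xist, the RNA that coats the inactive X chromosome of female cells, was 9.15-fold higher in q2 at 3.19 ± 0.38 in the authors' deposited table (q = 0.00162 from Cuffdiff). Since use of strand is not known, reads of Xist and of its antisense partner Tsix may not be separated. Of 6 tested entries of chromosome Y, 3 were called lower in the authors' deposited table, which were Ddx3y at -1.38, Eif2s3y at -0.92 and Uty at -0.91. The 1 called higher was Erdr1, at 1.21 in the authors' deposited table (q = 0.00162 from Cuffdiff). Erdr1 was not among those 8 genes and is named here after its value was seen. Y-linked Kdm5d was not called, at -0.62 in the authors' deposited table (q = 0.107 from Cuffdiff). Their X-linked relatives Kdm6a, Kdm5c and Eif2s3x were not called either, with values of -0.05, 0.33 and 0.0011 (q = 0.941, 0.415 and 0.998 from Cuffdiff) by the authors' deposited table. With the trend with GC content removed the calls of Eif2s3y and Uty were lost, as they were with p from a normal distribution. Over chromosome X as a whole, 23 of 527 tested entries were called higher and 21 lower, 8.35% together beside 7.58% on the autosomes in the authors' deposited table. The median log2 fold change was -0.08 on chromosome X and -0.05 on the autosomes in the authors' deposited table. A finite log2 fold change above that of Irak1 was held by 4 of 527 tested entries of chromosome X in the authors' deposited table. On the autosomes it was held by 57 of 14770. The part of the sex-linked difference in the value of Irak1 was not tested.

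**Figure D4:**
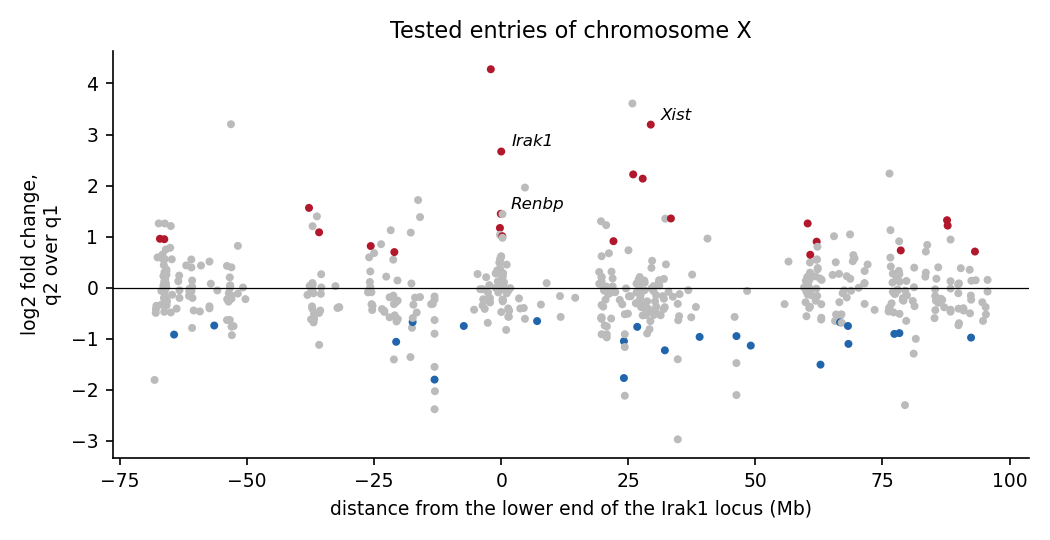
Log2 ratio of q2 to q1, taken from the authors' deposited table, (y axis) against distance from the lower end of the Irak1 locus in Mb (x axis) for the 527 tested entries of chromosome X. Red points are the 23 called higher, blue the 21 called lower and grey those not called; Irak1 at 2.67 and Xist at 3.19 stand high while most entries lie near the chromosome's median of -0.08.

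Markers of other cells that use this pathway were mostly not tested. Of 13 microglia and macrophage markers 3 were tested with 0 Cuffdiff calls, 0 also having an unadjusted p under 0.05, and the defining markers Cx3cr1, Csf1r, Aif1, Itgam, Trem2, Tmem119 and Ptprc were among the 10 not tested in the authors' deposited table. In the authors' deposited table the lysosomal gene Cd68 had 0.98 ± 0.94, and P2ry12, a purine receptor gene, had 1.37 ± 2.62. Of 7 endothelial and pericyte markers 2 were tested with 0 Cuffdiff calls, 0 also having an unadjusted p under 0.05, Kdr at 0.71 ± 0.54 and Cspg4 at -0.27 ± 0.31 in the authors' deposited table. Neural stem cell markers were tested for 8 of 9, with 1 called higher, the intermediate filament gene Nes at 0.75 ± 0.32, and 2 lower, Fabp7 at -1.13 ± 0.34 and Hes5 at -0.82 ± 0.35, in the authors' deposited table. Nes lost its call with the trend with GC content removed (q = 0.0828) and with p from a normal distribution (q = 0.298), as did Hes5 with the latter (q = 0.304). In whole cultures, fewer cells of a type and less RNA per cell cannot be told apart, and the part of cell composition in the values above was not tested.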

How the data were processed

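RNA was measured in 4 libraries, 2 per shRNA. Per the labels' protocols, sequencing used poly(A)-selected RNA and a SOLiD Total RNA-Seq kit. The submitters' processing notes name build mm10, Cufflinks 2.2.1, TopHat2 2.0.9 and Cuffdiff. Not given in the sources used here are the version of Cuffdiff, the annotation, any filter and whether strand was used, so reads of overlapping genes on opposite strands may not be separated. The authors deposited 1 table with log2 fold changes of q2 over q1, a test statistic that serves as a score, and p-values and q-values, per the file headers. The q-values of all 15315 tested entries match Benjamini-Hochberg adjusted p-values within a relative tolerance of 0.001. Left out were 2 columns of per-condition values, since no label ties them to a group. Whether the p-values reflect spread between cultures or only technical spread is not known.

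The implied error is the absolute log2 fold change over the statistic. The members and lists were chosen with earlier results of these data known. Named were all members, up to 4 called genes per list (largest change first), 2 tested genes with the largest statistic where fewer than 2 were called, neighbours of Irak1 within 100 kb on the side of lower coordinates, and Foxp1; 1 result that this rule names is not reported here. For the alternatives, p was read from the authors' relation of p to statistic after bin medians (50 bins) of GC content or length were subtracted, over 11476 genes. Locus starts were converted to count from 1. Promoters are from RefSeq, transcripts from GENCODE M21. Computation used pandas 2.3.3 and numpy 2.4.6 under Python 3.11.15, with scipy 1.17.1 for intervals, scikit-learn 1.9.0 (isotonic regression) for the relation of p to statistic and matplotlib 3.10.9 for plots.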

Additional observations from a re-analysis of the deposited data

How the results depend on the processing

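No paired analysis was possible because the table holds 1 comparison of combined conditions and no values per library; for the same reason no library could be left out. Irak1 stayed called and was the only member called under all 10 alternatives, with log2 fold changes from 2.49 to 2.73 and q at most 0.0024. Since Irak1 was selected on this comparison and has a large statistic, this could hardly come out otherwise. It is a description and no further support. Nfkbia was not in the alternative limited to loci that overlap no other. Also outside it were the named genes Peli2, Bcl2l1, Il1rap, Nfkb2, P2ry12 and Xist, whose reads may not be separated from those of the overlapping entries. Among the other members, Tollip went to -0.00654 with the trend with GC content removed and to -0.00925 with that of transcript length removed, and Tab1 to -0.10 with the GC trend removed; Il18 went to 0.0349 and Irf3 to -0.0354 with the GC trend removed. The 7 calls over the pathway lists became 4 at q under 0.01, 6.06% of those tested beside 4.36% of all entries tested. With p from a normal distribution they became 3, 4.55% beside 2.77%. They rose to 8, 3 higher and 5 lower, at q under 0.1, among entries with a single symbol, and with p read from the statistic and nothing subtracted. The 8 were 12.1% of those tested, beside 10.5%, 9.56% and 10% of all entries tested in these settings in turn. In each of these settings the NF-κB target list held 3 calls higher and 2 lower of 9 tested. The 1168 calls over all entries became 667 at q under 0.01, 687 with an absolute log2 fold change of at least 1, and 424 with p from a normal distribution. The 5 entries below Irak1 became 1 within 10 kb and, by overlap with any entry, 0. Of 473 values of named genes under the alternatives, 440 kept direction and call, 27 lost the call, 1 gained it and 5 changed sign. Direction could change only where a median or trend was subtracted, and a gene not called could not gain a call at a stricter threshold. The 440 are therefore no measure of stability. One alternative, reading p from the statistic with nothing subtracted, was chosen after seeing the data.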
